A study of Mus musculus with 2 samples.

Results

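The 8 miRNA genes described here form 3 genomic clusters, which are Mir200b, Mir200a and Mir429, Mir200c and Mir141, and Mir183, Mir96 and Mir182. They were found by their GENCODE M21 symbols, by a rule that names no count but was written with earlier results of these data known, and all 8 were found among the 2202 miRNA genes listed. Total RNA of the cortex, left side, was profiled by microRNA sequencing at an age of 10 days, in males of the B6CASTF1/J cross between the B6 and CAST strains. The labels give 1 group of 2 libraries, biological replicates 1 and 2, from specimens numbered as males 3 and 4. There was no other condition, so levels and the spread between these 2 libraries are described. The cortex was profiled as whole tissue, in which fewer cells of a type and less RNA per cell cannot be told apart.

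A miRNA gene gives a hairpin precursor from which a mature strand is cut, and bases 2 to 8 of that strand, the seed, pair with target transcripts. The miR-200 family is known from epithelial cells, where it represses Zeb1 and Zeb2, transcription factors that in turn repress the miR-200 genes. In the mouse nervous system the family is known from olfactory neurogenesis. The miR-183 cluster is known from sensory cells of the retina, inner ear and dorsal root ganglia, and mutation of Mir96 causes hearing loss in mice and humans.

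The mature strands by which these genes are best known are shown to set the seeds beside the levels, with the seed in capitals. For the miR-200 genes this is the 3p strand, and for the miR-183 cluster the 5p strand (RefSeq, GRCm38.p6).
miR-200b-3p: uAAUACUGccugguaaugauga
miR-200c-3p: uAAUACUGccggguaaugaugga
miR-429-3p: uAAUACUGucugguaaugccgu
miR-200a-3p: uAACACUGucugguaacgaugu
miR-141-3p: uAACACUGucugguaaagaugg
miR-183-5p: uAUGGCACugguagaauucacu
miR-96-5p: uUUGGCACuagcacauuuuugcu
miR-182-5p: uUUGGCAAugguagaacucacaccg

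The miR-200 strands fell into 2 seed groups that cut across the loci. miR-200b, miR-200c and miR-429 shared one seed, and miR-200a and miR-141 the other. The 2 seeds differ by 1 base, U4C from miR-200b to miR-200a, with positions counted from 1 at the 5′ end. Beyond the seed, miR-200b and miR-200c differed at U11G and A22G only over the 22 positions compared, and miR-200a and miR-141 at C17A and U22G only. In the miR-183 cluster no seed was shared. miR-96 differed from miR-182 in the seed at C8A, and miR-183 from miR-96 at A2U. Of RefSeq's other mouse miRNAs, miR-1271 had the seed of miR-96, and its gene, listed as Gm24195, had 0 reads in both libraries.

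All 8 genes lie on minus strands. In mm10, Mir200b (ENSMUSG00000065549.3) lies at chr4:156055681-156055750, Mir200a at chr4:156054896-156054985 and Mir429 at chr4:156053905-156053987. All 3 lie in introns of the protein-coding gene Ttll10 on the same strand, and Mir429 also lies in an exon of the processed transcript Gm13648. The cluster spans 1846 bases. Mir200c, at chr6:124718322-124718390, and Mir141, at chr6:124717914-124717985, are 336 bases apart in an intron of Gm15884. Mir141 partly overlaps Gm29008 as well. Mir183, at chr6:30169668-30169737, and Mir96, at chr6:30169446-30169551, are 116 bases apart, and Mir182 lies 3453 bases beyond Mir96 at chr6:30165918-30165992. No annotated gene contains the miR-183 cluster. The long noncoding RNA Rncr4, on the opposite strand, lies 3155 bases from Mir183.

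Replicate 1 had 2677910 reads assigned to miRNA genes on their own strand and replicate 2 had 1750076, so 3 reads equal 1.12 and 1.71 CPM (counts scaled to a common total of assigned reads). Counts are per hairpin and sum both strands of it. Of the mapped reads, 51.2% in replicate 1 and 49.2% in replicate 2 had several possible places and count for no gene. The 6 neuron-associated genes, which check the labelled tissue, were all detected and summed to 44413 and 34757 CPM. The 4 genes of microglia and leukocytes summed to 1626 and 1598 CPM. The 3 oligodendrocyte genes had 834 and 1423 CPM, and the 1 endothelial gene 9622 and 11137 CPM. The 2 mural genes (cells of the vessel wall), Mir143 and Mir145a, had 4016 and 4077 CPM. Another 7 genes, of ciliated cells and choroid plexus, summed to 1121 and 2769 CPM. The genes of miR-124 are not in the neuron list and are given further below. The hairpins of Mir128-1 and Mir128-2 share 23 bases, those of Mir138-1 and Mir138-2 share 24, and those of Mir219a-1 and Mir219a-2 share 22. The counts of these genes are uncertain, and so are the neuron and oligodendrocyte sums. The 3 erythroid genes summed to 814 CPM in replicate 1 and 56.6 CPM in replicate 2. The liver gene Mir122 had 55.6 and 45.1 CPM, and the 4 muscle genes summed to 57.9 and 69.1 CPM.

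The miR-200 genes were present at low levels, and Mir429 was the highest of the 8. Of Mir429 there were 85 reads in replicate 1 and 58 in replicate 2, or 31.7 and 33.1 CPM, a mean of 32.4 ± 0.990 CPM (SD, n = 2). Mir200c had 55 and 53 reads, or 20.5 and 30.3 CPM, a mean of 25.4 ± 6.89 CPM. Mir200b had 78 and 23 reads, or 29.1 and 13.1 CPM, a mean of 21.1 ± 11.3 CPM. These 3 genes, which share a seed, stood at more than 10 CPM in both libraries, and Mir200b spread most between them.

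The genes of the other miR-200 seed were close to the limit of counting. Mir200a had 6 reads in each library, or 2.24 and 3.43 CPM (exact Poisson 95% intervals 0.822 to 4.88 and 1.26 to 7.46 CPM). Mir141 had 6 and 4 reads, or 2.24 and 2.29 CPM (0.822 to 4.88 and 0.623 to 5.85 CPM). Both lie just above the 2 CPM in both libraries that was used to call a gene detected, and their intervals reach below it.

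Of the miR-183 cluster, Mir183 and Mir182 were detected and Mir96 was not. Mir183 had 32 and 24 reads in replicates 1 and 2, or 11.9 and 13.7 CPM, a mean of 12.8 ± 1.25 CPM (SD, n = 2). Mir182 had 37 and 12 reads, or 13.8 and 6.86 CPM, a mean of 10.3 ± 4.92 CPM. For Mir96, the gene linked to hearing loss, replicate 1 had 0 reads and replicate 2 had 1. A count of 0, taken to allow up to 3 reads, allows up to 1.12 CPM in replicate 1, and the upper limit of the exact Poisson 95% interval is 1.38 CPM. The 1 read in replicate 2 equals 0.571 CPM, with an exact Poisson interval of 0.0145 to 3.18 CPM. A level under these limits was not detectable at this depth.

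**Figure D1:**
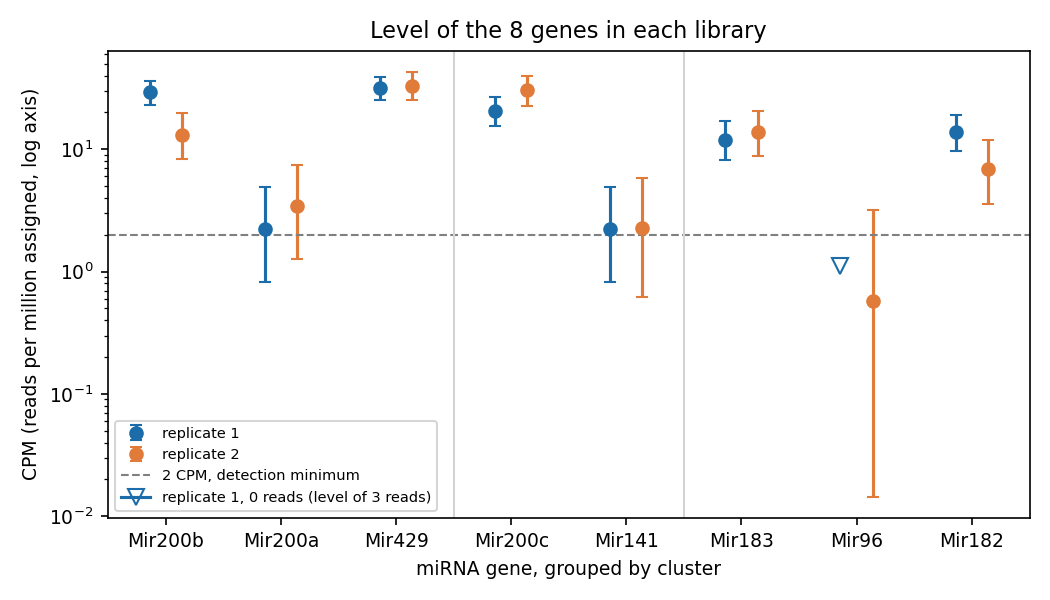
CPM of each gene in replicates 1 and 2 on a log axis, grouped by cluster, with exact Poisson 95% intervals for counting error. Mir429, Mir200c and Mir200b stand highest, Mir200a and Mir141 sit at the 2 CPM minimum, and Mir96 had 0 reads in replicate 1 (open triangle at the level of 3 reads, 1.12 CPM) and 1 read in replicate 2.

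In order of mean CPM the genes were Mir429, Mir200c, Mir200b, Mir183, Mir182, Mir200a, Mir141 and Mir96. Neighbours in this order were separate, with both libraries of one above both libraries of the next, at 3 steps. These were Mir429 above Mir200c, Mir182 above Mir200a at 3.65 times its mean, and Mir141 above Mir96. This rule leaves out counting error, and at each of these 3 steps the Poisson intervals of the closest libraries overlap. For Mir429 in replicate 1 and Mir200c in replicate 2, at 31.7 and 30.3 CPM, they are 25.4 to 39.2 and 22.7 to 39.6 CPM. At the other 4 steps the libraries overlapped or were equal, so that order is not larger than the spread between the libraries. Mir200c, Mir200b, Mir183 and Mir182 were linked to each other by such steps.

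Summed over loci, the Mir200b to Mir429 cluster had 63.1 and 49.7 CPM in replicates 1 and 2, a mean of 56.4 ± 9.47 CPM (SD, n = 2). The Mir200c with Mir141 cluster had 22.8 and 32.6 CPM, a mean of 27.7 ± 6.92 CPM. The miR-183 cluster had 25.8 and 21.1 CPM, a mean of 23.5 ± 3.27 CPM. The 2 libraries of the first cluster stood above those of the other clusters, which overlapped each other. The 8 genes together had 299 and 181 reads, or 0.0112% (Wilson 95% interval 0.00997% to 0.0125%) and 0.0103% (0.00894% to 0.0120%) of assigned reads. The 5 miR-200 genes exceeded the 3 genes of the miR-183 cluster 3.33-fold in replicate 1 (exact binomial 95% interval 2.54 to 4.43) and 3.89-fold in replicate 2 (2.70 to 5.75).

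At both miR-200 loci, neighbouring genes with different seeds differed in reads. Mir429 stood 14.2-fold above Mir200a in replicate 1 (95% interval 6.25 to 39.7) and 9.67-fold in replicate 2 (4.18 to 27.4). Mir200b stood 13.0-fold above Mir200a in replicate 1 (5.71 to 36.5) and 3.83-fold in replicate 2 (1.52 to 11.5). At the other locus Mir200c stood 9.17-fold above Mir141 in replicate 1 (3.95 to 26.1) and 13.3-fold in replicate 2 (4.88 to 50.4). In each library and each pair the interval lay above 1. The ratios of Mir429 and of Mir200b to Mir200a divide by the same 6 reads in each library, so they are not independent.

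The seed group of miR-200b, miR-200c and miR-429 held most miR-200 reads. Its share was 94.8% in replicate 1, with a Wilson 95% interval of 91.1% to 97.0%. In replicate 2 it was 93.1% (87.7% to 96.2%). Its summed level was 81.4 and 76.6 CPM, against 4.48 and 5.71 CPM for Mir200a with Mir141. Within a library these are 18.2-fold (10.2 to 35.7) and 13.4-fold (7.06 to 28.6). The intervals cover counting error only, since reads copied by PCR are not independent molecules.

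Sequence shared between hairpins bears on how reads can be placed. The hairpins of Mir200a and Mir141 share a stretch of 17 bases, which begins 1 base before the mature 3p strand, and the hairpins of Mir200b and Mir200c share one of 14. Both are shown because a read that ends inside such a stretch has more than 1 possible source.
Mir200a and Mir141: cuaacacugucugguaa
Mir200b and Mir200c: ucucuaauacugcc
For each of the 8 genes the longest stretch shared with any other listed hairpin was 11 to 17 bases. No listed copy therefore matches a whole mature strand of these genes, whose printed strands run from 22 to 25 bases. How many reads were too short to place was not tested.

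The hairpins of Mir200c and Mir141 are shown for the neighbours with the same contrast on chromosome 6, with both mature strands in capitals. Reads of either strand count for the gene.
Mir200c: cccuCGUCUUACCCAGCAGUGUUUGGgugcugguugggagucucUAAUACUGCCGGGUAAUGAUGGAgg
Mir141: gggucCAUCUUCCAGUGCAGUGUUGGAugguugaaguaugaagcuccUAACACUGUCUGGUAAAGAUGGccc

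Inside the miR-183 cluster the contrast was between Mir96 and its neighbours. Set against 3 reads for the 0 of Mir96, Mir183 stood at least 10.7-fold and Mir182 at least 12.3-fold above Mir96 in replicate 1. These bounds leave out the counting error of Mir183 and Mir182, and the exact binomial 95% lower limits, which include it, were 8.18 and 9.54. In replicate 2 Mir183 stood 24.0-fold (3.91 to 987) and Mir182 12.0-fold (1.78 to 513) above Mir96. Mir96 lies 116 bases from Mir183, the nearest pair of the 3 clusters. Between Mir183 and Mir182 no difference was detectable at this depth, with Mir183 at 0.865 times Mir182 in replicate 1 (0.522 to 1.43) and 2.00 times in replicate 2 (0.962 to 4.39), and both intervals include 1.
Mir183: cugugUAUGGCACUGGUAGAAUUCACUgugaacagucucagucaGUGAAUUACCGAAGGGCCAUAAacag
Mir96: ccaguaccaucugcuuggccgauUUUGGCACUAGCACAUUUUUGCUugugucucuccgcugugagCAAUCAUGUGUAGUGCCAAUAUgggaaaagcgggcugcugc
These hairpins, again with the mature strands in capitals, share no more than 11 bases with any other listed hairpin.

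**Figure D2:**
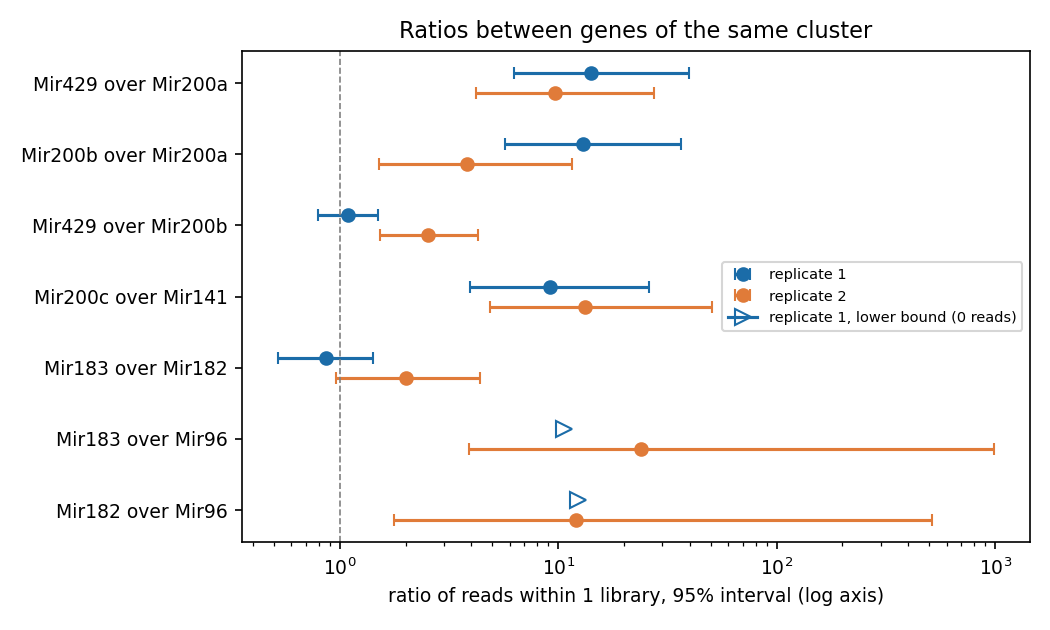
Ratio of reads between genes of the same cluster, within replicate 1 (upper point) and replicate 2 (lower point), with exact binomial 95% intervals on a log axis. Mir429 over Mir200a and Mir200c over Mir141 lie between 9.17 and 14.2 in both libraries, and open triangles are bounds set against 3 reads for pairs with Mir96 at 0 reads, without the counting error of the other gene.

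The 8 genes stood low among the detected miRNA genes. Of the 2202 genes, 442 (20.1%) were detected, and 744 had a read in either library. Of the 8 genes, 7 were detected and all 8 had a read. Their ranks by mean CPM ran from 269 for Mir429 to 478 for Mir141, with Mir96 at 682. None reached the median of the detected genes, 89.4 CPM. Next above Mir429 stood Mir10b, a gene of the Hox clusters, at 34.3 ± 8.88 CPM (SD, n = 2), and next below Mir141 stood Mir1941 at 2.25 ± 1.57 CPM. The libraries of Mir10b, at 28.0 and 40.6 CPM, lay on either side of those of Mir429. The liver gene Mir122, at a mean of 50.4 CPM, stood above all 8 genes. The muscle genes Mir206 and Mir499, at means of 23.7 and 22.2 CPM, stood between Mir200c and Mir200b. Genes known from tissues other than cortex thus reached similar levels. Which cells the reads of the 8 genes came from was not tested.

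**Figure D3:**
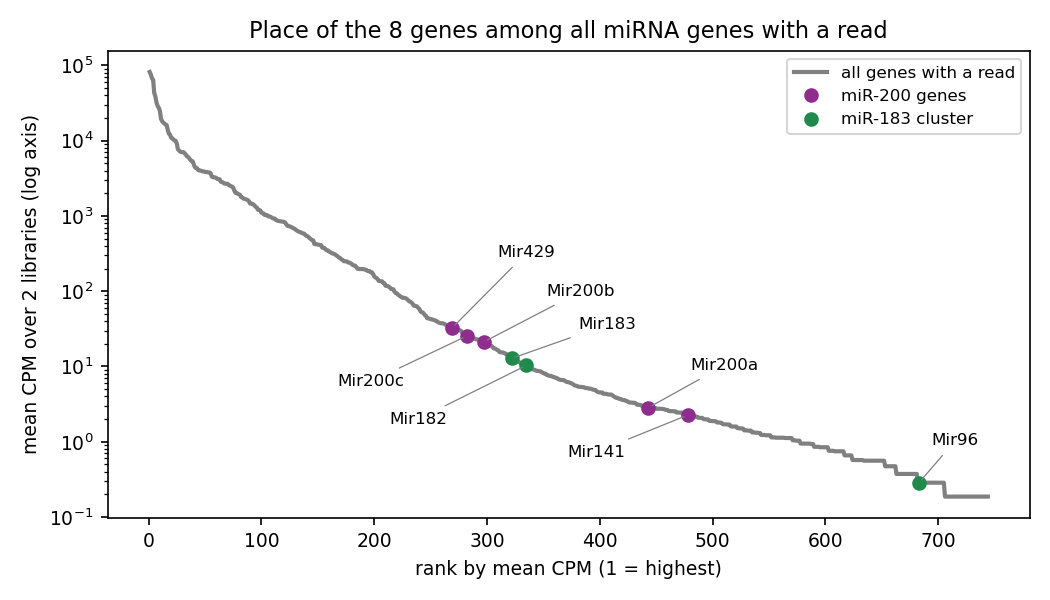
Mean CPM over the 2 libraries on a log axis against rank, for the 744 miRNA genes with a read. The miR-200 genes (purple) and the miR-183 cluster (green) lie between ranks 269 and 682, below the median of detected genes at 89.4 CPM.

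Between the libraries Mir200b differed and the other 6 genes tested did not pass the test. Mir200b was 2.22-fold higher in replicate 1, with a log2 ratio of replicate 1 over replicate 2 of 1.13 (95% counting interval 0.46 to 1.89). Its adjusted p was 0.00155 by Fisher's exact test (two-sided) on reads, Benjamini-Hochberg adjusted over the 542 genes at 2 CPM or more in either library. A call needed both an adjusted p below 0.05 and a log2 ratio at or beyond 1 or -1. Of the genes tested 12.0% were called, 6.27% as higher and 5.72% as lower in replicate 1. By adjusted p alone 42.3% passed, and 1 of the 7 genes of these clusters did. The 1 call in 7 genes (14.3%) is near the 12.0% of all genes tested, and the test compares 2 libraries, not conditions. Of the 3 erythroid genes, 2 (Mir451a and Mir144) were called higher in replicate 1, and Mir486 had 25.4 and 25.7 CPM. Mir486 shares 22 bases with Mir3107, so its count is uncertain. The part of the erythroid genes in the difference of Mir200b was not tested.

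Mir182 in replicate 1 had 2.02 times its CPM in replicate 2, a log2 ratio of 0.97 (0.04 to 2.09) and an adjusted p of 0.0874 in Fisher's exact test. The log2 ratio of Mir200c was -0.56 (-1.13 to 0.01), with an adjusted p of 0.103. Neither passed the test. The interval of Mir429, from -0.56 to 0.45 around -0.07, was the narrowest of the 7. For Mir183 it ran from -1.01 to 0.63, and for Mir200a and Mir141, with few reads, from -2.52 to 1.29 and from -2.10 to 2.24. Mir96 was not tested. The median log2 ratio of the 7 was -0.08, beside 0.09 for all 542 genes, and the median size was 0.56, beside 0.46.

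The reads of Mir200b were also set against those of Mir429, its neighbour in the cluster, in a ratio that needs no library total. This ratio and the shares below reuse the reads that gave the call. They restate the difference on another scale and are no separate support for it. Mir429 had 1.09 times the reads of Mir200b in replicate 1 (0.792 to 1.50) and 2.52 times in replicate 2 (1.53 to 4.28), and these intervals do not overlap. Of miR-200 reads Mir200b made up 33.9% in replicate 1, with a Wilson 95% interval of 28.1% to 40.3%. In replicate 2 its share was 16.0% (10.9% to 22.8%), which does not overlap the first. Mir200c made up 23.9% (18.9% to 29.8%) and 36.8% (29.4% to 44.9%), and Mir429 37.0% and 40.3%. Summed over the 5 miR-200 genes, replicate 1 had 1.04 times the CPM of replicate 2 (0.844 to 1.29), and over the miR-183 cluster 1.22 times (0.806 to 1.87).

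**Figure D4:**
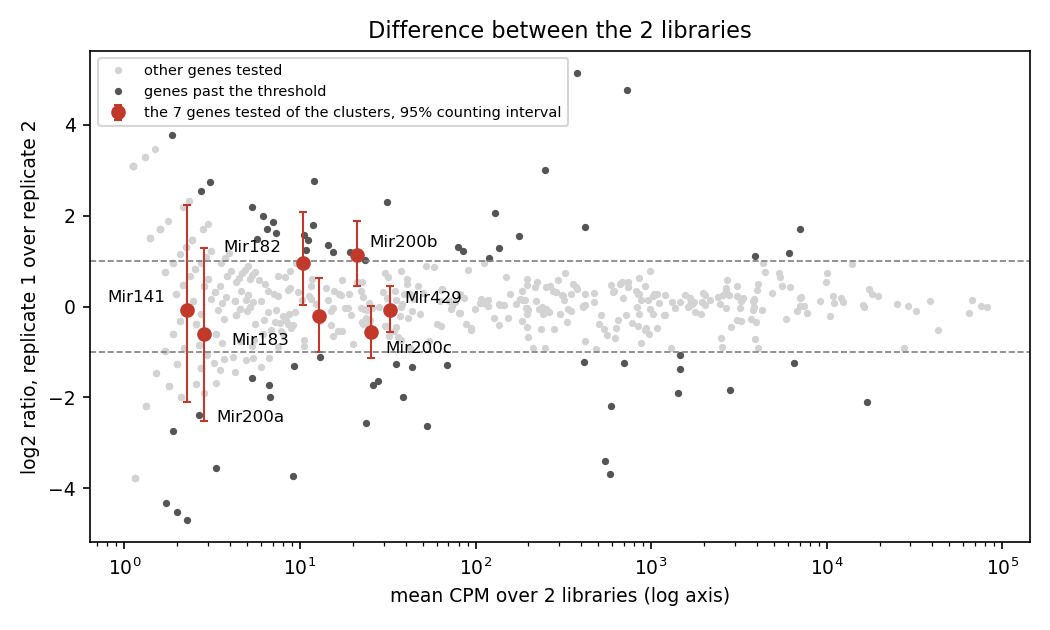
Log2 ratio of replicate 1 over replicate 2 against mean CPM (log axis) for the 542 genes tested, with the 7 genes of the clusters in red and their 95% counting intervals. Mir200b, at 1.13, is the 1 of the 7 past the threshold, Mir182 sits at 0.97, and dashed lines mark log2 ratios of 1 and -1.

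Of 8 other miRNA genes of epithelial cells, 6 were detected, and 3 of them, Mir31, Mir203 and Mir375, stood above Mir429 in mean CPM. The median log2 ratio of the 6 was -0.17. Mir203, known from skin epithelium, had 139 and 135 CPM in replicates 1 and 2, and Mir375, known from endocrine cells and pancreatic islets, 117 and 139 CPM. Mir205, a partner of the miR-200 family in repressing Zeb1 and Zeb2, was lower at 10.1 and 7.43 CPM. Mir31 had 83.6 and 1078 CPM, and it and Mir194-2 (13.4 and 42.3 CPM) were the 2 of 6 tested that were called, both lower in replicate 1. Of all genes tested 12.0% were called, 5.72% as lower in replicate 1. This list and the lists below were chosen with earlier results of these data known. Mir194-2 shares 22 bases with Mir194-1, which had 0 reads in both libraries, so its count is uncertain.

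The miRNAs associated with ciliated cells, ependyma and choroid plexus, epithelia that a cortex specimen can carry, differed between the libraries. Of 12 listed, 7 were detected and 10 tested, and 7 were called lower in replicate 1 and 0 higher. Of all genes tested, 5.72% were called lower in replicate 1 and 6.27% higher. Their summed level was 1407 CPM in replicate 1 and 3880 CPM in replicate 2, and the median log2 ratio of the 10 was -1.75. Of the 7 called, Mir34b (1.12 and 17.1 CPM), Mir449c (0 and 3.43 CPM) and Mir1912 (0 and 4.57 CPM) reached 2 CPM in replicate 2 only. They were tested only through the library where they were higher, so they could only be called lower in replicate 1. The count of 7 and the median include them. The called genes detected in both libraries were Mir34c, Mir449a, Mir1298 and Mir448. Mir34c, a gene of multiciliated cells, had 93.4 and 993 CPM, and Mir449a 249 and 578 CPM. Mir1298, in the serotonin receptor gene Htr2c, had 213 and 973 CPM, and Mir204, which is abundant in choroid plexus, 775 and 1176 CPM. Of the 12, 3 had 0 reads in 1 of the libraries. Beside this the 5 miR-200 genes summed to 85.9 CPM in replicate 1 and 82.3 CPM in replicate 2, and of the 7 genes tested Mir200b, the 1 called, was higher in replicate 1. The part of these cells in the levels of the miR-200 genes was not tested.

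In the lists for 3 other tissues no gene was called, though some passed Fisher's exact test by adjusted p alone. Lower in replicate 1 were Mir214 (log2 ratio -0.92, adjusted p 4.5e-20) and Mir204 (-0.60, 1.3e-39), which is also in the ciliated list. Higher were Mir7-2 (0.54, 7.3e-08) and Mir7b (0.11, 0.0040). These log2 ratios fell short of the minimum for a call, and 42.3% of all genes tested passed by adjusted p alone. Mir7-2 shares 24 bases with Mir7-1, so its count is uncertain. The mesenchymal and meningeal list summed to 4197 and 4398 CPM, with 5 of 7 genes detected and 0 of 5 tested called. It was led by Mir143 (3821 and 3872 CPM), with Mir214 at 146 and 277 CPM, Mir145a at 195 and 205 CPM and Mir10b as given above. Mir143 and Mir145a are also the 2 mural genes, at 4016 and 4077 CPM together, so most of this sum is theirs. Whether the sum comes from vessel walls or from meninges was not tested. The neuroendocrine and pituitary list summed to 2291 and 2094 CPM, with 4 of 4 detected and 0 called, and was led by Mir7b at 1831 and 1700 CPM. The list for retina and pineal gland, places where the miR-183 cluster is abundant, summed to 783 and 1182 CPM, with 1 of 5 detected and 0 of 4 tested called. Nearly all of it was Mir204, and Mir211 had 3 and 2 reads. The 3 genes of miR-124 in this list share 32 bases with another of the 3, so their counts of 0 to 10 reads are uncertain.

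**Figure D5:**
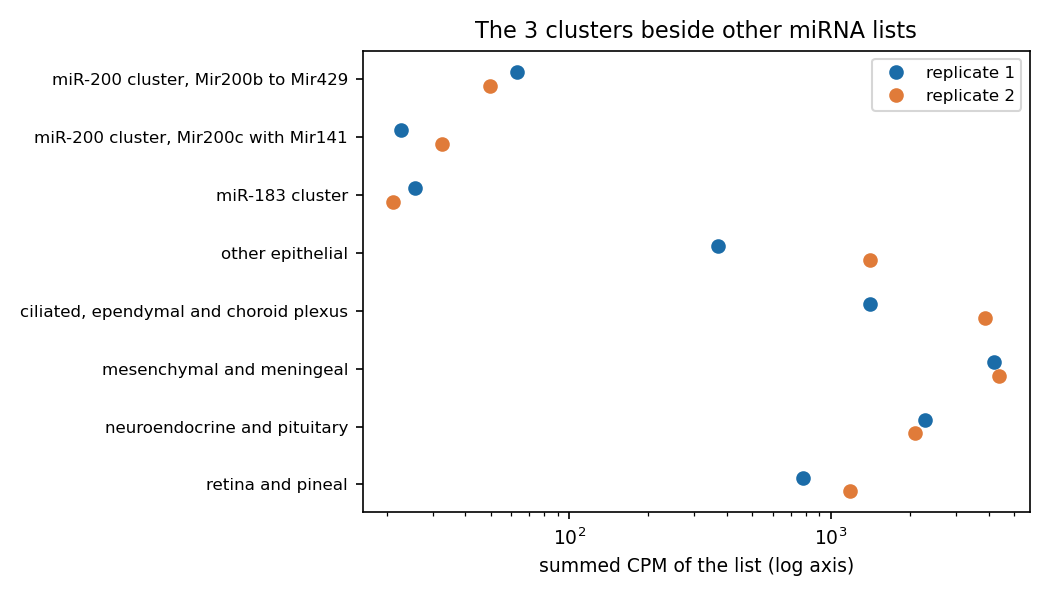
Summed CPM (log axis) of the 3 clusters and of 5 other miRNA lists in replicate 1 (upper point) and replicate 2 (lower point). The 3 clusters lie between 21.1 and 63.1 CPM in both libraries, and the ciliated, ependymal and choroid plexus list at 1407 and 3880 CPM.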

How the data were processed

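The deposited files give raw read counts per miRNA gene, on mm10 with GENCODE M21 per the labels. Not given in the sources used here are the aligner, counter and trimming. Of the 3 count columns the sense column was used. The 4 rows that name no gene were left out. They held 25.5% (replicate 1) and 42.4% (replicate 2) of all reads as unmapped, 38.2% and 28.3% as mapped to more than 1 place and 6.93% and 5.74% as outside miRNA genes. CPM are counts over the column sum. CAST alleles were not considered.

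With 1 group, the only test was Fisher's exact test per gene across all genes between libraries, with Benjamini-Hochberg adjustment. Log2 ratios had 0.5 reads added. Alternatives were another strand column, other totals (TMM of edgeR 4.0.16, R 4.3.3), other minimums and leaving out a library. The test was tried on simulated counts with counting error only, which leaves out the spread between animals. Python 3.11.15, scipy 1.17.1 and pandas 2.3.3 were used. Gene lists (other epithelial, ciliated with ependymal and choroid plexus, mesenchymal, neuroendocrine, retina and pineal, neuron) and the genes themselves were chosen with earlier results of these data known. Named were the 8 genes, their seed mates, the genes next to them in level and up to 4 genes per list. Mir205, Mir211, Mir194-1, the erythroid genes and those of miR-124 were named after their values were seen. So were Mir34b, Mir448, Mir449c, Mir1912, Mir122, Mir206, Mir499 and Mir3107, and the genes of miR-128, miR-138 and miR-219.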

Additional observations from a re-analysis of the deposited data

How the results depend on the processing

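With unstranded counts the means of Mir429 and Mir141 were 34.7 and 2.42 CPM. The 8 genes had the same reads in the sense and unstranded columns, and the unstranded total is smaller. With all reads of the library as the total, the mean CPM of Mir429, Mir200c, Mir200b, Mir183, Mir182, Mir200a and Mir141 were 8.58, 6.59, 5.84, 3.37, 2.84, 0.734 and 0.599, because unassigned reads then enter the total. The shares of the Mir200b to Mir429, Mir200c with Mir141 and miR-183 clusters were 0.00151%, 0.000719% and 0.000628% on that scale. With 10 CPM as the minimum 4 of the 8 genes were detected, and 7 with 1 read in both libraries. Without a minimum log2 ratio 229 genes passed the library test in place of 65. Mir200b was the 1 gene of these clusters called under all 5 alternatives of the test. Leaving out a library returns the ratio of the other library, as given above, and so adds no check. For Mir429 to Mir200a this was 9.67 to 14.2, and for Mir200c to Mir141 9.17 to 13.3. No paired analysis was possible because there is 1 group. Depth limits Mir200a, Mir141 and Mir96, whose counts were 0 to 6 reads, and 2 libraries limit every SD.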

Other observations

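The opposite strands of the hairpins carry seeds of their own, which the counts per gene cannot separate. miR-200b-5p and miR-200a-5p share a seed, while those of miR-200c-5p, miR-141-5p and miR-429-5p have no match among the other mouse miRNAs of RefSeq. miR-96-3p has the seed of miR-3475-5p, whose gene Mir3475 had 337 and 361 CPM in replicates 1 and 2, against 0 and 0.571 CPM for Mir96. Mir3475 was named for its seed and not for its level. No read was counted on the strand opposite to any of the 8 genes.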
